A study of Mus musculus with 7 samples.

Results

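Transcripts of 9 ligands of the TGF-beta superfamily and of 1 secreted antagonist were examined in mature white adipocytes that lacked or kept free fatty acid receptor 2 (FFA2, gene *Ffar2*). The 10 genes were taken by name: *Tgfb1*, *Tgfb2* and *Tgfb3*, the activin subunit genes *Inhba* and *Inhbb*, *Bmp2* and *Bmp4*, the divergent ligands *Gdf15* and *Gdf10*, and the antagonist gene *Fst*. All 10 were found among the 57010 genes of the count table, and all 10 passed the filter on low counts that left 17039 genes to test. RNA came from collagenase-isolated adipocytes of perigonadal fat of 20-week-old male mice on chow. The 3 FFA2 fl/fl mice carried floxed *Ffar2* without Cre. The 4 Adipoq-F2-KO littermates carried the same floxed alleles and Cre under the adiponectin promoter, so the deletion was directed to adipocytes, and other cells that stayed with the adipocytes kept the gene. FFA2 fl/fl mice had no Cre transgene, so Cre itself and the loss of FFA2 cannot be told apart.

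Ligands of this superfamily are secreted dimers that bring together type I and type II receptor kinases on the cell surface. TGF-betas and activins signal mainly through SMAD2 and SMAD3, and BMPs through SMAD1, SMAD5 and SMAD9, while secreted antagonists such as follistatin bind the ligand first. In fat, BMP signaling is known for guiding preadipocytes toward the adipocyte fate, TGF-beta and activins for restraining that step and for matrix production, and GDF15 as a stress-induced hormone that acts on the hindbrain receptor GFRAL.

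Because *Gdf15* and *Inhbb* had the smallest p-values among the ligands, the 250 bases upstream of their annotated starts are shown, from RefSeq on GRCm38.p6, 5′ to 3′ on the strand of the gene. Capitals mark matches to a searched motif on either strand. *Gdf15* has 2 annotated starts, at chr8:70632096-70632345 (minus strand) and chr8:70632457-70632706 (minus strand), and the *Inhbb* window lies at chr1:119422249-119422498 (minus strand).
Gdf15, downstream start: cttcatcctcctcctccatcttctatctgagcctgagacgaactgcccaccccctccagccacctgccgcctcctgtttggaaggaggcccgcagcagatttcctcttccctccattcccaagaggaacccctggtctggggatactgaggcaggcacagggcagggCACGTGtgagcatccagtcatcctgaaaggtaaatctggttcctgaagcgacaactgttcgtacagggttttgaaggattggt
Gdf15, upstream start: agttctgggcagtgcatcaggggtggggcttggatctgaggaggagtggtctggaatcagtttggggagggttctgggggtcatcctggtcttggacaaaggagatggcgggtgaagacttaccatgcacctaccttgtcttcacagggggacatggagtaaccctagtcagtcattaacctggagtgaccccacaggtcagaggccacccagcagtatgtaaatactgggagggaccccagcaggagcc
Inhbb: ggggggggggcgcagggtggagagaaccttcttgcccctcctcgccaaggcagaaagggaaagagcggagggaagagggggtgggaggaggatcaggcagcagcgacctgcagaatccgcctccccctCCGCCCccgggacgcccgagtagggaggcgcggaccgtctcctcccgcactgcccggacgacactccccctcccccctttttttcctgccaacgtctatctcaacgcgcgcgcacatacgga
The capitals are an E-box in *Gdf15* and a GC box, read on the opposite strand, in *Inhbb*. The motifs searched were the TATA box TATAAA, held by 12.4% of 32851 windows of this length, the E-box CACGTG (6.02%), the GC box GGGCGG (32.7%), the AP-1 site TGANTCA (6.75%), the cAMP response element TGACGTCA (1.55%), the ATF4 response element TGATGNAA (3.45%) and the SMAD element GTCTAGAC (0.167%). No searched motif contains another, and no matches overlapped in the windows shown. Windows were found for 7 of the 10 genes, and not for *Tgfb3*, *Bmp2* and *Fst*. The E-box also lay in the windows of *Bmp4* and *Tgfb2*, the TATA box in those of *Tgfb2* and *Inhba*, and the GC box in those of *Tgfb1*, *Gdf10* and *Bmp4*. None of these 7 genes had the AP-1, cAMP response, ATF4 or SMAD letters in its window.

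Total counts per library were 30478997 to 39992605. Levels are given as normalized CPM, counts scaled to a common library size (CPM) after TMM correction, the trimmed mean of M values. *Ffar2* itself had 1404, 1346 and 1094 counts in FFA2 fl/fl libraries 1 to 3. It had 67, 38, 48 and 76 counts in Adipoq-F2-KO libraries 1 to 4, and its log2 fold change was -4.36 ± 0.22 (SE). *Adipoq*, the adiponectin gene, lay at 2419 to 3762 normalized CPM in all 7 libraries. Mitochondrial genes took 4.41%, 5.77% and 4.98% of the counts in FFA2 fl/fl and 7.82%, 6.61%, 9.24% and 10.3% in Adipoq-F2-KO, without overlap. Leaving these genes and the most abundant unnamed gene out of the fit changed no call among the 10 genes. Adipoq-F2-KO library 2 held protamine transcripts of germ cells (*Prm2*, 54.1 normalized CPM, against 0 to 5.31 in the others). Adipoq-F2-KO library 4 was the highest of its genotype in 7 of the 10 genes.

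*Fst* was higher in the Adipoq-F2-KO libraries and was the one gene of the 10 called at an adjusted p under 0.05. *Inhbb*, *Tgfb1* and *Gdf15* had higher means and *Tgfb3* a lower mean without passing that threshold. *Bmp2* differed least. Against 1 of 10 genes called higher, 0.798% of all tested genes were called higher, and 1.02% were called in either direction (173 genes, edgeR's quasi-likelihood test with Benjamini-Hochberg adjustment). At an unadjusted p under 0.05 there were 4 higher genes and 1 lower gene of the 10, against 17.9% of all tested genes. In 4 of the 10 genes no library of one genotype lay within the range of the other, which held for 17.6% of the tested genes. DESeq2 called 3 of the 10, *Fst*, *Gdf15* and *Inhbb*, against 6.75% of its 14704 genes. Mean levels were higher in Adipoq-F2-KO for 9 of the 10 genes, with a median log2 fold change of 0.39. The median of all tested genes was 0.0037 and 50.4% of them were higher. As the 10 genes were chosen with earlier results of these data known, these shares only describe them.

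**Figure D1:**
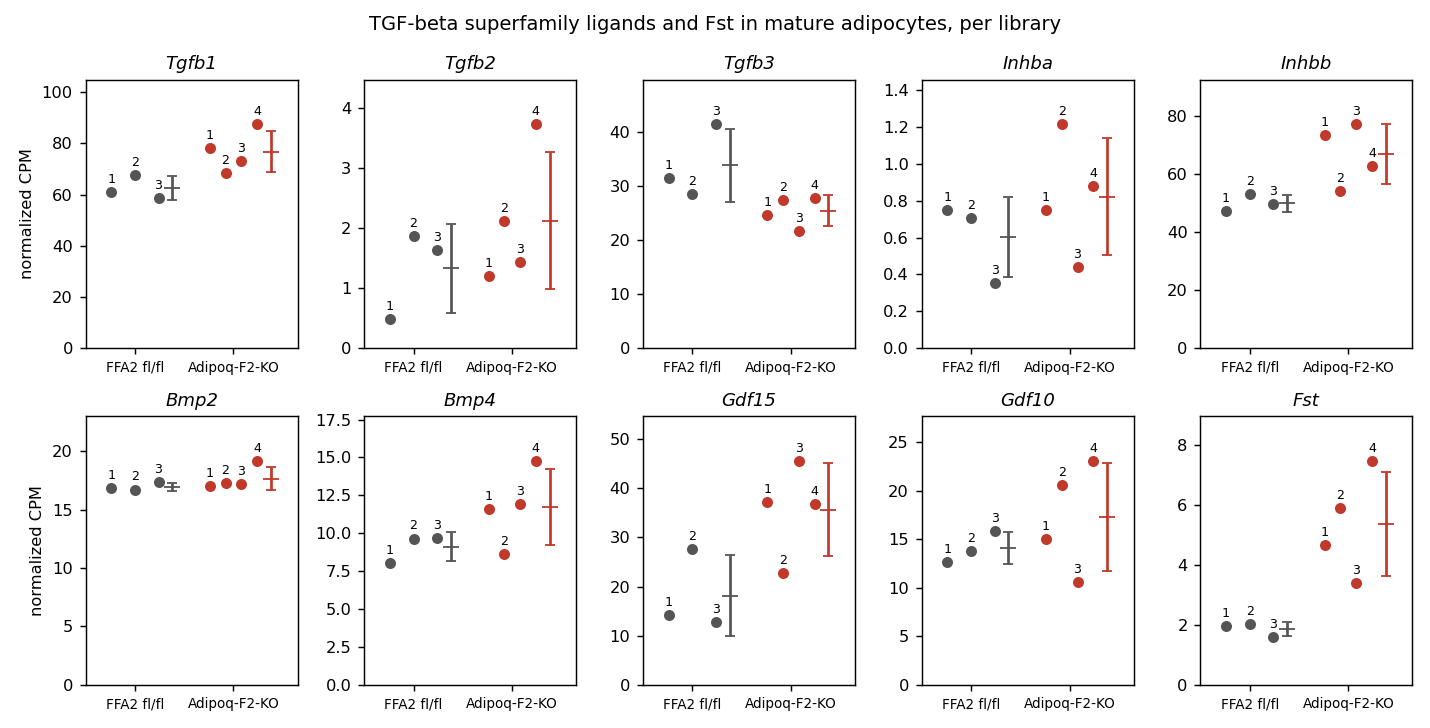
Normalized CPM of each gene (vertical axes, from 0) in the 3 FFA2 fl/fl libraries (grey) and 4 Adipoq-F2-KO libraries (red), numbered by replicate, with the mean and SD at the right of each group. The groups are apart in Fst, Inhbb, Tgfb1 and Tgfb3, and Gdf15 overlaps through FFA2 fl/fl library 2 and Adipoq-F2-KO library 2.

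*Fst* encodes follistatin, which binds activins and, less tightly, some BMPs and keeps them from their receptors. Its levels were 1.98, 2.02 and 1.58 normalized CPM in FFA2 fl/fl and 4.67, 5.89, 3.40 and 7.46 in Adipoq-F2-KO libraries 1 to 4. Every Adipoq-F2-KO library lay above every FFA2 fl/fl library, and the spread within Adipoq-F2-KO was wider (coefficient of variation 32.4% against 12.9%). The values rest on 54 to 80 counts in FFA2 fl/fl and 123 to 220 in Adipoq-F2-KO, against a limit of 6 counts that 0 counts would allow. The log2 fold change was 1.52 ± 0.29 (SE, edgeR's quasi-likelihood test, adjusted p = 0.0416), a ratio of 2.87, with a 95% interval on the log2 scale of 0.88 to 2.17. An exact two-sided permutation test on the mean levels returned p = 0.0571, and its 35 arrangements allow no p below 0.0286. The adjusted p lay above 0.05 in all 7 fits that left out 1 library (edgeR, 0.053 to 0.207), with log2 fold changes of 1.32 to 1.69. Without Adipoq-F2-KO libraries 2 and 4 the log2 fold change was 1.12 (edgeR, adjusted p = 0.152).

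**Figure D2:**
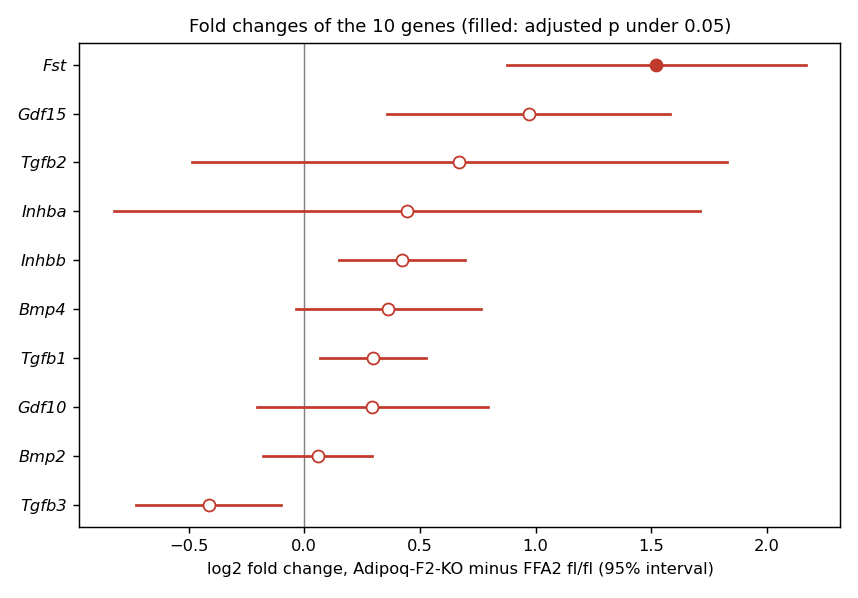
Log2 fold change of each gene (horizontal axis, Adipoq-F2-KO minus FFA2 fl/fl) with its 95% interval, filled where the adjusted p of edgeR was under 0.05. Fst at 1.52 is the one filled point, and the intervals of Gdf15, Inhbb and Tgfb1 lie above 0 and that of Tgfb3 below 0.

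*Inhbb* encodes the beta B subunit, which forms activin B as a homodimer, and white adipocytes are a known source of it. It was measured at 47.1, 53.0 and 49.6 normalized CPM in FFA2 fl/fl and at 73.5, 54.2, 77.1 and 62.7 in Adipoq-F2-KO. The groups did not overlap, but Adipoq-F2-KO library 2 lay just above the highest control. On the log2 scale the difference was 0.42 ± 0.12 (SE, adjusted p = 0.12 by edgeR's quasi-likelihood test and 0.0349 by DESeq2), and the exact permutation p was 0.0571. Without Adipoq-F2-KO libraries 2 and 4, an alternative chosen after seeing the data, the difference was 0.60 (edgeR, adjusted p = 0.0447). Its adjusted p lay above 0.05 in all 7 fits that left out 1 library (edgeR, 0.069 to 0.387). *Inhba*, the beta A subunit of activin A, was close to the limit of detection, with 12 to 28 counts in FFA2 fl/fl and 16 to 40 in Adipoq-F2-KO. Its levels of 0.748, 0.706 and 0.351 normalized CPM overlapped with 0.753, 1.22, 0.442 and 0.882 in Adipoq-F2-KO. Its log2 fold change of 0.44 ± 0.58 (SE, edgeR, adjusted p = 0.731) had an interval of -0.82 to 1.71, so a difference in either direction could not be shown with these 7 libraries. Its log2 fold change was 0.20 without Adipoq-F2-KO library 2, and 0.19 when FFA2 fl/fl library 3 was left out.

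*Gdf15* encodes growth differentiation factor 15, made by many cells under stress. Its levels were 14.1, 27.6 and 12.7 normalized CPM in FFA2 fl/fl and 37.3, 22.8, 45.5 and 36.9 in Adipoq-F2-KO. In Adipoq-F2-KO, 3 libraries lay above all FFA2 fl/fl libraries and the other one, library 2, lay below FFA2 fl/fl library 2. Its log2 fold change was 0.97 ± 0.28 (SE), a ratio of 1.96, with an adjusted p of 0.114 in edgeR and 0.00812 in DESeq2. Without FFA2 fl/fl library 2, the highest control, it was 1.41, and the smallest value on leaving out 1 library was 0.78. *Gdf10*, also called BMP3b, is a ligand known to hold back adipocyte formation. It lay at 12.6, 13.8 and 15.8 normalized CPM in FFA2 fl/fl and at 15.0, 20.5, 10.6 and 23.03 in Adipoq-F2-KO. Adipoq-F2-KO held both the lowest and the highest library, and the log2 fold change was 0.29 ± 0.23 (SE, edgeR, adjusted p = 0.535). Without Adipoq-F2-KO library 4 it was 0.13, and without libraries 2 and 4 it was -0.13.

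*Tgfb1*, the TGF-beta isoform that most cell types make and that macrophages produce in quantity, was measured at 60.9, 67.8 and 58.7 normalized CPM in FFA2 fl/fl. Its Adipoq-F2-KO levels were 78.1, 68.5, 73.1 and 87.4. The groups did not overlap, with a gap of under 1 CPM between the 2 libraries numbered 2. The difference on the log2 scale was 0.30 ± 0.10 (SE, edgeR, adjusted p = 0.175), with an exact permutation p of 0.0571. *Tgfb3* was the one gene of the 10 with a lower mean. It stood at 31.6, 28.6 and 41.5 normalized CPM in FFA2 fl/fl against 24.7, 27.6, 21.7 and 27.8 in Adipoq-F2-KO. Again the gap between the groups was under 1 CPM, and FFA2 fl/fl library 3 stood above the rest. Its log2 fold change was -0.41 ± 0.14 (SE, edgeR, adjusted p = 0.171), and the exact permutation test gave p = 0.0286, the smallest it can give. Without FFA2 fl/fl library 3 the log2 fold change was -0.23. *Tgfb2* had 18 to 74 counts in FFA2 fl/fl and 48 to 110 in Adipoq-F2-KO. Its levels of 0.481, 1.86 and 1.64 normalized CPM overlapped with 1.20, 2.13, 1.44 and 3.73 (log2 fold change 0.67 ± 0.53 SE, edgeR, adjusted p = 0.543). It was 0.26 without Adipoq-F2-KO library 4 and 0.27 without FFA2 fl/fl library 1.

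*Bmp2* and *Bmp4* encode BMPs that act on preadipocytes. *Bmp2* lay at 16.8, 16.7 and 17.3 normalized CPM in FFA2 fl/fl and at 17.0, 17.3, 17.2 and 19.2 in Adipoq-F2-KO. Of its 7 libraries, 6 lay within 1 CPM of each other, and Adipoq-F2-KO library 4 stood above them, with a log2 fold change of 0.06 ± 0.11 (SE, edgeR, adjusted p = 0.82), with an interval of -0.18 to 0.29. *Bmp4* lay at 8.01, 9.65 and 9.67 normalized CPM against 11.6, 8.63, 11.9 and 14.8. Adipoq-F2-KO library 2 fell within the FFA2 fl/fl range and the other 3 above it, and the log2 fold change was 0.36 ± 0.18 (SE, edgeR, adjusted p = 0.322). Without Adipoq-F2-KO library 4 it was 0.24.

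To compare levels between genes, normalized CPM was divided by exon length in kb. In FFA2 fl/fl, *Tgfb1* (12.4 ± 0.94 normalized CPM per kb, SD, n = 3), *Inhbb* (11.7 ± 0.70), *Tgfb3* (10.02 ± 1.99) and *Gdf15* (9.80 ± 4.44) led, and each overlapped with the next. Below them *Bmp2* (4.77 ± 0.09), *Bmp4* (4.05 ± 0.42), *Gdf10* (2.70 ± 0.31) and *Fst* (0.405 ± 0.052) followed, each above the next in every library. *Tgfb2* (0.229 ± 0.128) and *Inhba* (0.094 ± 0.034) were lowest and overlapped. In Adipoq-F2-KO, *Gdf15* (19.2 ± 5.10, n = 4) had the highest mean, with *Inhbb* (15.7 ± 2.45) and *Tgfb1* (15.2 ± 1.61) within its spread. All 3 lay above *Tgfb3* (7.53 ± 0.84) in every library. *Tgfb3*, *Bmp4* (5.22 ± 1.11) and *Bmp2* (4.97 ± 0.28) overlapped in turn. *Gdf10* (3.32 ± 1.07) lay below *Bmp2* in every library but overlapped with *Bmp4*. *Fst* (1.17 ± 0.38), *Tgfb2* (0.367 ± 0.197) and *Inhba* (0.129 ± 0.050) followed in that order, each below the one before in every library.

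**Figure D3:**
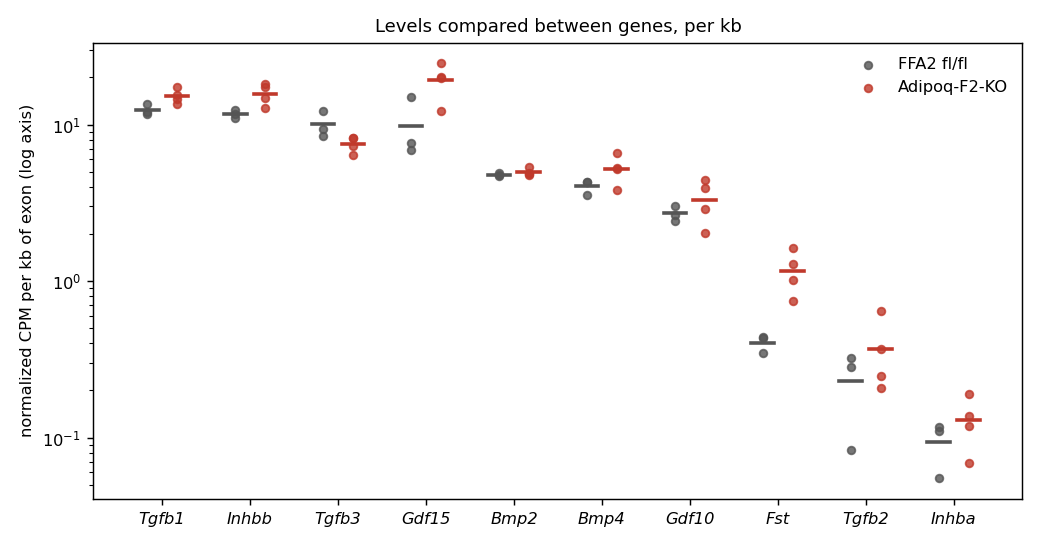
Normalized CPM per kb of exon (log axis) for each gene, ordered by its mean in FFA2 fl/fl, with 1 point a library and a bar at the mean. Levels span from 12.4 for Tgfb1 to 0.094 for Inhba in FFA2 fl/fl (grey) and from 19.2 for Gdf15 to 0.129 for Inhba in Adipoq-F2-KO (red).

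Ratios within a library describe the balance between ligand and antagonist transcripts. The log2 ratio of *Inhbb* to *Fst* per kb was 4.68, 4.83 and 5.08 in FFA2 fl/fl and 4.09, 3.31, 4.61 and 3.18 in Adipoq-F2-KO. The groups did not overlap, and activin beta B transcripts exceeded follistatin transcripts by 29.1 times in FFA2 fl/fl and by 13.9 times in Adipoq-F2-KO (geometric means). The log2 ratio of *Inhba* to *Fst* was also lower in Adipoq-F2-KO, from -3.56 to -2.76 against -2.65 to -1.88, without overlap. Within the TGF-betas, the log2 ratio of *Tgfb3* to *Tgfb1* was -0.37, -0.67 and 0.07 in FFA2 fl/fl and -1.08, -0.74, -1.17 and -1.08 in Adipoq-F2-KO. It did not overlap either, and corresponds to 0.80 and 0.49 *Tgfb3* per *Tgfb1*. The ratios of *Inhbb* to *Inhba*, *Bmp2* to *Bmp4* and *Tgfb2* to *Tgfb1* overlapped between genotypes. These ratios were not tested, and those with *Fst* or *Tgfb3* carry the differences given above.

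The rest of the pathway was read from 8 lists of ligands, antagonists, receptors, SMADs, latency and processing factors, targets and stress genes that together hold 127 genes. Of these, 97 were tested, 62 had a higher and 35 a lower mean in Adipoq-F2-KO, and the median log2 fold change was 0.13. One gene was called by edgeR, a share near the 1.02% of all tested genes. It was *Bgn*, which encodes biglycan, a matrix proteoglycan known to bind TGF-beta. *Bgn* rose from 149 ± 21.96 to 227 ± 26.1 normalized CPM (SD, n = 3 and 4, log2 fold change 0.60 ± 0.12 SE, edgeR, adjusted p = 0.0479), with Adipoq-F2-KO library 4 at 265 and the others at 209 to 217. Leaving out any 1 library put its adjusted p at 0.052 to 0.241 (edgeR). DESeq2 called 15 of the 97 genes higher and 1 lower, where it called 6.75% of all its genes. An unadjusted p under 0.05 (edgeR) was found for 26 higher and 5 lower genes of the 97, against 17.9% of all tested genes. These shares of all genes are the background for the counts of each list below.

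Among other ligands, 15 of 24 did not pass the filter on low counts, and 0 of the 9 tested were called (0 at an unadjusted p under 0.05, and 0 in DESeq2). The most abundant were *Bmp3* at 50.6 ± 6.45 and 39.4 ± 14.6 normalized CPM in FFA2 fl/fl and Adipoq-F2-KO and *Bmp6* at 24.1 ± 1.69 and 25.0 ± 6.50 (SD). Of 10 tested antagonists besides *Fst*, 6 had higher and 4 lower means and 0 were called by edgeR (1 at an unadjusted p under 0.05, 1 by DESeq2). The BMP antagonist *Chrdl1* lay at 171 ± 14.1 and 150 ± 34.4 normalized CPM. The follistatin-related gene *Fstl1* lay at 43.9 ± 7.13 and 68.7 ± 17.0, without overlap between genotypes (log2 fold change 0.65 ± 0.18 SE, adjusted p = 0.104 by edgeR and 0.0116 by DESeq2).

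Of 16 tested receptors and co-receptors, 11 had higher and 5 lower means, and 0 were called by edgeR. All 3 with an unadjusted p under 0.05 (edgeR) and the 2 called by DESeq2 were higher. *Acvr1c*, which encodes ALK7, the type I receptor of activin B and other activin-like ligands in adipocytes, lay at 151 ± 21.9 and 170 ± 28.3 normalized CPM. *Eng*, the endothelial co-receptor endoglin, lay at 177 ± 24.9 and 227 ± 34.02. Named after their values were seen, the 2 that DESeq2 called were the type I receptors of TGF-beta and activin, *Tgfbr1* (26.2 ± 1.36 and 37.8 ± 7.52, adjusted p = 0.11 by edgeR and 0.025 by DESeq2) and *Acvr1b* (54.6 ± 3.41 and 72.4 ± 10.2, adjusted p = 0.119 and 0.0374). *Gfral*, the GDF15 receptor gene, was at 0 counts in every library, and a count of 0 allows up to 0.151 to 0.204 normalized CPM (6 counts a library, counting error only).

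Of 15 tested SMADs and SMAD regulators, 9 had higher and 6 lower means, and 0 were called by edgeR. With an unadjusted p under 0.05 (edgeR) 4 were higher and 1 lower, and DESeq2 called 3 higher and 1 lower. *Pmepa1*, a TGF-beta target that feeds back on SMADs, lay at 306 ± 22.2 and 218 ± 33.3 normalized CPM, lower in every Adipoq-F2-KO library (log2 fold change -0.49 ± 0.12 SE, adjusted p = 0.0786 by edgeR and 0.00542 by DESeq2). The SMAD co-repressor *Ski* lay at 138 ± 9.17 and 140 ± 9.92. The co-repressors *Skil* and *Tgif1*, named after their values were seen, lay at 72.4 ± 9.20 and 100 ± 10.3 and at 9.38 ± 3.06 and 19.4 ± 5.00 normalized CPM. DESeq2 called both higher, and also *Smad1*, named in the same way. *Smad1* lay at 32.7 ± 1.51 and 43.1 ± 4.29 normalized CPM (adjusted p = 0.0971 by edgeR and 0.0208 by DESeq2).

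Of 17 tested latency, processing and activation genes, 13 had higher and 4 lower means, with *Bgn* the one called by edgeR. Unadjusted p under 0.05 (edgeR) was reached by 7 higher and 1 lower, and DESeq2 called 3 higher. *Thbs1*, which encodes the TGF-beta activator thrombospondin 1, lay at 2196 ± 247 and 2477 ± 494 normalized CPM, and *Ltbp3*, a latent TGF-beta binding protein gene, at 597 ± 22.7 and 523 ± 64.2. Of 16 TGF-beta and activin targets, 9 had higher and 7 lower means and 0 were called by edgeR. Here 6 were higher and 1 lower at an unadjusted p under 0.05 (edgeR), against 17.9% of all tested genes. DESeq2 called 4 higher and 1 lower, against 6.75% of its genes. Named after their values were seen, the higher ones were *Fn1*, *Postn*, *Cdkn1a* and *Skil*, and the lower one was *Pmepa1*. The collagen genes *Col1a2* and *Col3a1* lay at 423 ± 24.7 and 366 ± 55.2 and at 535 ± 125 and 713 ± 61.8 normalized CPM. Of 10 tested BMP targets, 6 had higher and 4 lower means and 0 were called by edgeR. By unadjusted p under 0.05 (edgeR) 4 were higher and 1 lower, and DESeq2 called 1, *Id2*, higher. *Id2*, named after its values were seen, lay at 7.64 ± 2.00 and 13.8 ± 2.75 normalized CPM without overlap. Its adjusted p was 0.0737 by edgeR and 0.00556 by DESeq2. The most abundant, the BMP-induced inhibitors *Id1* and *Id3*, lay at 42.0 ± 6.94 and 31.6 ± 5.69 and at 345 ± 21.7 and 300 ± 66.6 normalized CPM.

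Genes of the stress responses known to precede or accompany *Gdf15* were split by the direction of their means, with 6 of 12 higher and 6 lower. None was called by edgeR. With an unadjusted p under 0.05 (edgeR) 4 were higher and 2 lower, and DESeq2 called 3 higher and 0 lower. The genotypes did not overlap in 5 higher genes and in 0 lower ones of the 12, against 17.6% of all tested genes in either direction. Named after their values were seen, these were *Atf4*, *Ppp1r15a*, *Fgf21*, *Mdm2* and *Cdkn1a*, and DESeq2 called the genes *Ppp1r15a*, *Mdm2* and *Cdkn1a*. *Atf3*, a stress-induced transcription factor, lay at 374 ± 57.0 and 450 ± 50.02 normalized CPM. *Ppp1r15a*, the GADD34 gene, lay at 351 ± 33.96 and 438 ± 36.0 without overlap (adjusted p = 0.141 by edgeR and 0.0337 by DESeq2).

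**Figure D4:**
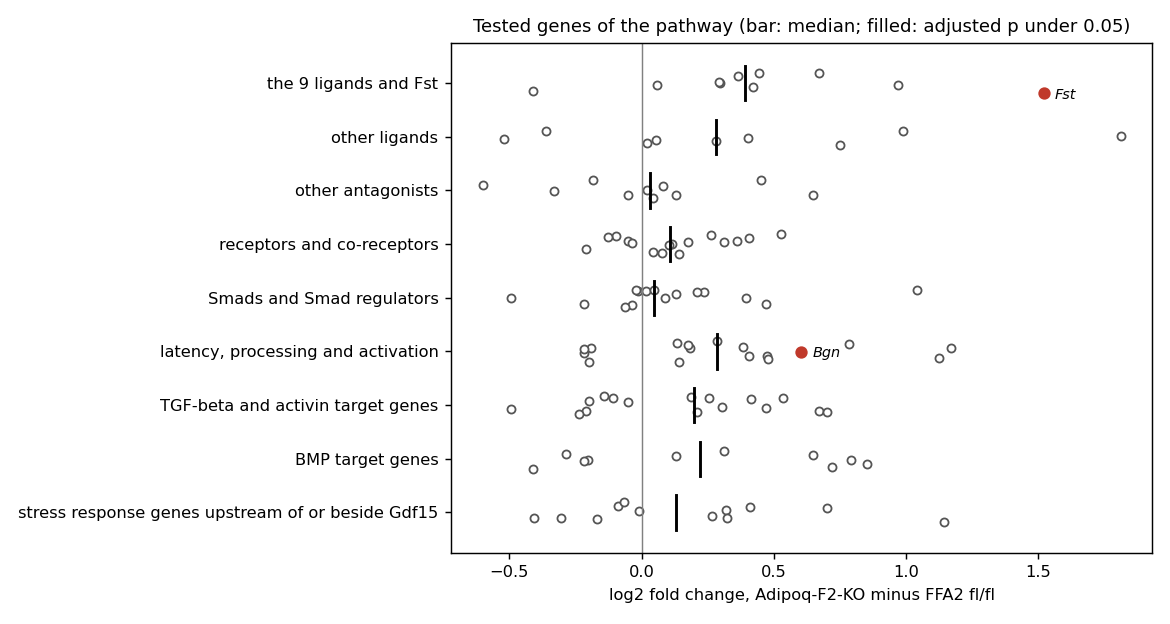
Log2 fold change (horizontal axis, Adipoq-F2-KO minus FFA2 fl/fl) of each tested gene in the 9 ligands with Fst and in the 8 pathway lists, with 1 point a gene and a bar at the median. Fst and Bgn are the filled points with an adjusted p under 0.05, and medians lie between 0.03 for other antagonists and 0.39 for the 10 genes.

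Markers of other cell types were measured in the same libraries. Of all tested genes, 17.9% had an unadjusted p under 0.05 and 1.02% were called by edgeR, and DESeq2 called 6.75% of its genes. Of 15 macrophage markers, 13 had higher means and 2 lower, and edgeR called *Lyz2* and *Cd68* higher. Unadjusted p was under 0.05 (edgeR) for 11 higher and 1 lower, and DESeq2 called 8 higher. The summed level of the macrophage markers was 503 to 556 normalized CPM in FFA2 fl/fl and 658 to 751 in Adipoq-F2-KO. *Lyz2*, a macrophage lysozyme gene, rose from 90.8 ± 15.7 to 147 ± 13.7 (SD, edgeR, adjusted p = 0.0382), and *Mertk* lay at 93.2 ± 18.2 and 69.8 ± 7.46. All 12 endothelial markers had higher means, with 0 called by edgeR (9 at an unadjusted p under 0.05, 5 by DESeq2). Their sum was 1321 to 1739 and 1803 to 2874 normalized CPM, with *Cdh5* at 352 ± 62.1 and 531 ± 130 and *Pecam1* at 208 ± 29.1 and 295 ± 73.5. Of 15 progenitor and fibroblast markers, 12 had higher means and 0 were called by edgeR, with sums of 1373 to 1733 and 1696 to 2013. For these, 7 were higher and 1 lower at an unadjusted p under 0.05 (edgeR), and DESeq2 called 1 higher. Of 8 smooth muscle and pericyte markers, 5 had higher means and 0 were called by either tool (1 at an unadjusted p under 0.05), with sums of 596 to 704 and 721 to 1238. Of 12 adipocyte markers, 11 had lower means and 0 were called by edgeR, with sums of 50689 to 56481 and 39765 to 51746. An unadjusted p under 0.05 (edgeR) was found for 5 lower and 1 higher, and DESeq2 called 2 lower. Mesothelial, lymphocyte and neutrophil sums overlapped between genotypes. Of the neutrophil markers, *S100a8* lay at 1.06 to 2.75 and *Csf3r* at 0.64 to 1.80 normalized CPM, the other 6 lay at 0.34 or less in every library, and *Ly6g* had 0 counts throughout. Of 12 epididymis and germ cell markers, 4 were tested and 3 had higher means, with sums of 0 to 4.56 in FFA2 fl/fl and 2.11 to 110.7 in Adipoq-F2-KO, mostly *Prm2* and *Tnp2* in library 2. Of the epididymal genes, Adipoq-F2-KO library 3 held *Lcn8* at 9.04 and *Adam7* at 6.08 normalized CPM (at most 0.41 and 0.81 in the others), *Crisp1* lay between 0 and 1.89, and *Lcn5* and *Defb21* had 0 counts in all 7 libraries. The 16 genes induced by tissue dissociation had a median log2 fold change of 0.02. In bulk RNA, more cells of a type and more RNA per cell cannot be told apart, and the part of these other cells in the levels of *Fst*, *Gdf15*, *Inhbb*, *Tgfb1* and *Tgfb3* was not tested.

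The 3 genes whose pattern over the 7 libraries lay closest to *Fst*, by mean absolute difference of centred log2 CPM among 13508 genes, were *Gm14636* (0.171), *Serpina3f* (0.173) and *Ptpro* (0.176). *Serpina3f* lay at 11.4, 15.2 and 12.5 normalized CPM in FFA2 fl/fl and at 22.8, 36.8, 27.7 and 45.2 in Adipoq-F2-KO. As in *Fst*, Adipoq-F2-KO library 4 was highest and library 2 next. Closest to *Gdf15* were *Apln* (0.161), *Gpr132* (0.161) and *Tnfrsf25* (0.171). *Apln*, the apelin gene, lay at 8.17, 15.9 and 9.02 normalized CPM and at 23.8, 11.4, 20.0 and 22.1, with FFA2 fl/fl library 2 high and Adipoq-F2-KO library 2 low as in *Gdf15*.

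**Figure D5:**
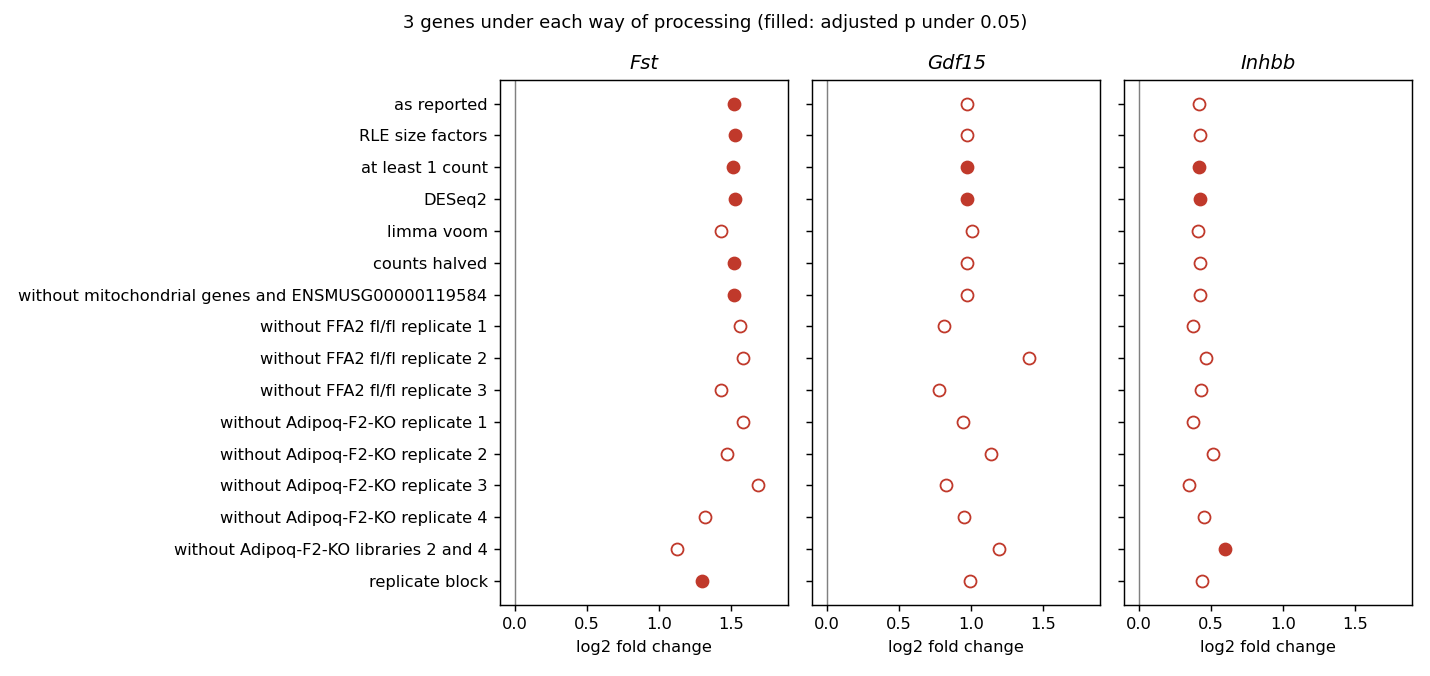
Log2 fold change (horizontal axes) of Fst, Gdf15 and Inhbb as reported and under each other way of processing (rows), filled where the adjusted p was under 0.05. All values lie above 0, Fst between 1.12 and 1.69, Gdf15 between 0.78 and 1.41 and Inhbb between 0.35 and 0.60, and which points are filled changes with the processing.

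In the deposited table *Fst* (ENSMUSG00000021765) lies on chromosome 13 from 114588826 to 114595487 and *Gdf15* (ENSMUSG00000038508) on chromosome 8 from 71082043 to 71085106. *Inhbb* (ENSMUSG00000037035) lies on chromosome 1 from 119343195 to 119349978, all 3 on the minus strand. These coordinates differ from GRCm38, the build the submitters' processing notes name, for 10 of the 10 genes, so the table's build is not given in the sources used here. Exons of *Tgfb2*, *Tgfb3*, *Bmp4* and *Fst* overlap predicted genes on the opposite strand. Those had 0 to 10 counts in any library, and whether counting used strand is not given in the sources used here.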

How the data were processed

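Per the labels, RNA of collagenase-isolated mature adipocytes was poly-A selected, prepared with a stranded kit and sequenced from both ends. Reads were trimmed by the authors with Trimmomatic, aligned with STAR and counted with featureCounts, and the authors deposited the counts per gene without normalization, and the submitters' processing notes also name DESeq2, GRCm38 and mm10. Versions and counting options are not given in the sources used here. Of the counts from 1 to 49, most were even, so both mates seem counted and 0 counts allow up to 6 counts (3 fragments), for counting error alone.

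Genes passing filterByExpr were normalized by TMM and tested two-sided with edgeR 4.0.16 (glmQLFit, glmQLFTest, R 4.3.3), with genotype as the only term, with Benjamini-Hochberg adjustment across the 17039 tested genes. SE is the log2 fold change over the square root of F. Alternatives were DESeq2 1.42.0, limma 3.58.1 voom, other normalization, filters and libraries. The fits were also run on simulated data, where the only requirement was the right sign of the true changes called. The share of false calls was not judged there. Symbols matched 52029 of 57010 identifiers. Of the list genes, 1 symbol (*Hjv*) was not matched. No 2 libraries of a genotype agreed within sampling noise. The labels call the samples separate mice of a genotype.

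The 10 genes and the lists were chosen with earlier results of these data known. Named are the 10 genes, *Ffar2*, *Adipoq*, of each pathway list the called genes and the 2 most abundant tested genes, of each marker list the 2 most abundant, and the 3 closest patterns to the 2 of the 10 genes with the smallest p. One gene that this rule names is not reported here. Others are said to be named after their values were seen or stand for a count. The labels give an age of 20 weeks.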

Additional observations from a re-analysis of the deposited data

Results flagged for a closer look

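In the 4 Adipoq-F2-KO libraries, 6 of 48 named genes had 1 library far from the other 3 by Dixon's test at 95%, where chance alone gives about 1 in 20. Of the 10 genes, this was *Bmp2*, at 19.2 normalized CPM in library 4 against 17.0 to 17.3 in the others. Library 4 also stood apart in *Bgn* (265 against 209 to 217 normalized CPM), in the endothelial marker *Pecam1* (404 against 248 to 274) and in the pericyte marker *Rgs5* (807 against 394 to 443). Library 2 stood apart in the germ cell genes *Prm2* (54.1 against 0.70 to 5.31) and *Tnp2* (31.0 against 0.20 to 2.32).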

How the results depend on the processing

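Of 150 values of the 10 genes under other ways of processing, 132 kept their direction and side of the threshold, 6 passed it newly, 9 no longer passed it and 3 changed sign. The 3 came without Adipoq-F2-KO libraries 2 and 4, an alternative chosen after seeing the data, with log2 fold changes of -0.0018 for *Tgfb2*, -0.0029 for *Inhba* and -0.13 for *Gdf10*. All genes called numbered 173 as reported, 1403 with at least 1 count as the filter, 992 in DESeq2, 36 without those libraries and 1 to 178 on leaving out 1 library. The lowest counts came without FFA2 fl/fl library 1 (1 gene) and library 3 (5), Adipoq-F2-KO library 2 (11) and library 3 (20) and FFA2 fl/fl library 2 (41). Of the 10 genes, 1 was called as reported, 4 with at least 1 count (*Fst*, *Gdf15*, *Inhbb* and *Tgfb3*), 3 in DESeq2, 0 in limma voom (*Fst*, adjusted p = 0.0669) and 0 on leaving out any 1 library. Without Adipoq-F2-KO libraries 2 and 4 it was 1, *Inhbb*. Of the 97 pathway genes, 1 was called as reported, 20 with at least 1 count, 16 in DESeq2, 2 with counts halved, 2 without Adipoq-F2-KO libraries 2 and 4, 2 with a replicate block and 0 to 2 on leaving out 1 library. *Bgn* was called in 0 of these 7 fits. The cause was not tested. Replicate numbers were not taken as pairs of mice in the main fit. Correlations of same-numbered libraries were 0.031, -0.024 and -0.020, and FFA2 fl/fl libraries 1, 2 and 3 were closest to Adipoq-F2-KO libraries 1, 4 and 1. So few libraries cannot decide whether mice were paired. With the replicate block, *Fst* had a log2 fold change of 1.30 (edgeR, adjusted p = 0.046) and 224 genes were called. Adipoq-F2-KO library 4 has no same-numbered control, so that fit takes no genotype difference from it. The least counted libraries of *Inhba* and *Tgfb2* held 12 and 18 counts.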
